A study of Mus musculus with 6 samples.

Results

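Lipoprotein lipase and the genes that carry fatty acids into the cell and its mitochondria were followed in cultured mouse muscle cells treated with recombinant human MG53. The set held 10 genes of the 27179 in the deposited count table: Lpl, Angptl4, Cd36, Fabp3, Fabp4, Fabp5, Pparg, Ppard, Cpt1a and Cpt1b. They were chosen by name, with the library-scaled counts of rhMG53 against BSA already known, so their differences between the groups are given as a description and without a test. The cells were primary satellite cells, which are muscle stem cells, from hindlimbs of wild-type C57BL/6 mice, and the labels call them ageing without an age. They grew in DMEM with 20% fetal bovine serum and basic fibroblast growth factor, conditions that both groups share. Of the libraries, 3 came from cells given recombinant human MG53 protein (rhMG53, written hMG53 in the sample labels) and 3 from cells given bovine serum albumin (BSA), the vehicle, for 72 h. MG53 belongs to the TRIM proteins, is made in striated muscle and is known for its part in membrane repair. No label names the mice or cultures behind a library, nor the dose, so the spread between libraries may be partly technical.

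Total gene counts were 17374151 to 19827476 in rhMG53 libraries and 17898768 to 22738745 in BSA libraries. Markers of differentiated muscle (8 of 8 genes past the filter on low counts) were led by Myh3 and Acta1. Their sum was 49905 to 58568 CPM (counts scaled to a common library size) with rhMG53 and 54610 to 57449 CPM with BSA. The lowest sum was in rhMG53 replicate 2, which also had the lowest Ttn (longest transcript 106824 bases), at 1581 CPM. BSA replicate 3 had the next lowest Ttn, at 2449 CPM, and RNA quality was not tested. The satellite cell factor Pax7 averaged 8.44 CPM with rhMG53 and 10.03 CPM with BSA, and its groups overlapped. Of the other satellite cell markers listed, Myf5, Vcam1 and Chodl averaged higher with rhMG53, and Itga7 and Calcr lower. The cultures therefore held RNA of differentiated muscle beside that of a satellite cell factor, and bulk counts do not show whether these came from separate cells. In such bulk samples, fewer cells of a type and less RNA per cell cannot be told apart. Of 7 adipocyte markers none passed the filter, Adrb3 and Lep were the highest, Cfd and Retn were at 0 counts in every library, and the list summed to 0.151 to 0.290 CPM in rhMG53 libraries and 0.169 to 0.550 CPM in BSA libraries.

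Lipoprotein lipase, the product of Lpl, is secreted by muscle and fat cells and splits triglyceride in circulating lipoproteins at the capillary wall, where GPIHBP1 anchors it. ANGPTL4 inactivates the enzyme, CD36 takes up the released fatty acids, and fatty acid binding proteins carry them through the cytosol. CPT1 then loads long-chain fatty acids onto carnitine for entry into mitochondria. Several of these genes are known targets of the nuclear receptors PPARG and PPARD, which fatty acids activate and which pair with RXR on DNA.

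Sequences before the transcription start are shown for Fabp3, Cd36 and Cpt1a, the 3 members on the path from uptake to mitochondria that had more than 10 CPM and an entry among RefSeq promoters (GRCm38.p6), in which 5 of the 10 genes were found. Each is the 250 bases before a RefSeq start on the strand of the gene, and capitals mark any match to 5 motifs searched on both strands. The windows are chr4:130308488-130308737 (plus strand) for Fabp3, chr5:17835897-17836146 (minus strand) for Cd36 and chr19:3323051-3323300 (plus strand) for Cpt1a. The Fabp3 window ends where the gene span begins, while the Cd36 and Cpt1a windows lie inside the gene spans and precede internal starts.
Fabp3: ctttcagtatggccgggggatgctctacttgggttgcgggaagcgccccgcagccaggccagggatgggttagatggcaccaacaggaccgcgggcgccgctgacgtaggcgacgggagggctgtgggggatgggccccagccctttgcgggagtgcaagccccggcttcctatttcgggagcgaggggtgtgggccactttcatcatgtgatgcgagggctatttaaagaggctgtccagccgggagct
Cd36: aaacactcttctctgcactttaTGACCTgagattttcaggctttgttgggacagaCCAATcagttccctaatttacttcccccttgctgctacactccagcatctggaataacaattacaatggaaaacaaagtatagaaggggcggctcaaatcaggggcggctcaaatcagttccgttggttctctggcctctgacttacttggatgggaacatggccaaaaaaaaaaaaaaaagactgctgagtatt
Cpt1a: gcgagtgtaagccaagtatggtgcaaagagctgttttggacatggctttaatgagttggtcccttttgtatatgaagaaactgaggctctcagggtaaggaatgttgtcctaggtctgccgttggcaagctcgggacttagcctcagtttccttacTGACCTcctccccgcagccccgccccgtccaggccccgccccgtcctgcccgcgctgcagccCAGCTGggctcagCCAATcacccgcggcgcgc
The direct repeat AGGTCANAGGTCA, to which PPAR and RXR bind, was in none of the 3 windows, and 0.0335% of the 32851 promoter windows of that length hold it. The single site AGGTCA, which 14.02% of all windows hold, was matched on the opposite strand in Cd36, where it began 228 bases before that internal start, and in Cpt1a, 94 bases before its own. CCAAT, in 33.8% of windows, was matched in Cd36 and Cpt1a, and the E box CAGCTG, in 13.0%, in Cpt1a. TATAAA, in 12.4% of windows, was matched in none of the 3. A match is a run of letters and not a site shown to be bound.

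Across all libraries the 10 genes spanned a wide range of levels, with Fabp3 far above the rest. Levels are CPM per kilobase of the median annotated transcript (RPKM), averaged over the 6 libraries. Fabp3, the binding protein typical of heart and skeletal muscle, was at 163.5 RPKM, 6.76 times the next gene. Ppard followed at 24.2 RPKM and Cd36 at 21.7 RPKM, and their ranges over libraries overlapped. Cpt1a was at 13.4 RPKM, Lpl at 3.35, Fabp5 at 1.92 and Angptl4 at 1.63, with overlapping ranges for Lpl and Fabp5 and for Fabp5 and Angptl4. Pparg at 0.739 RPKM, Fabp4 at 0.521 and Cpt1b at 0.134 were the lowest, each overlapping its neighbour. Scaled by the longest transcript, Cd36 (17.2 RPKM) stood above Ppard (10.98) without overlap and Cpt1a (4.03) overlapped Lpl. Fabp4 and Cpt1b then no longer overlapped, and the other places in the order did not change.

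**Figure D1:**
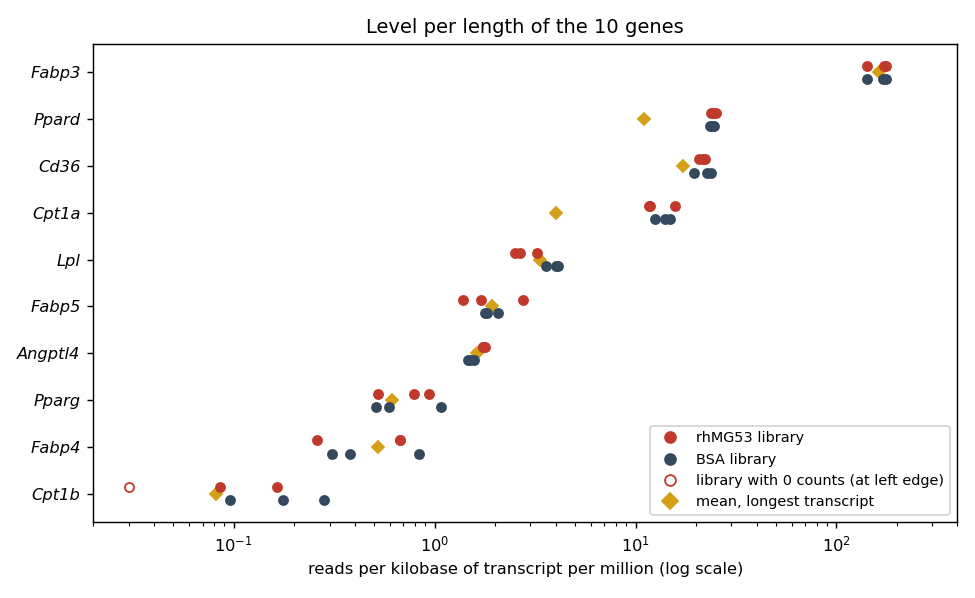
Level of each gene in RPKM (log axis), 1 circle per library, rhMG53 in red above BSA in dark blue, with a diamond for the mean scaled by the longest transcript. Fabp3 lies between 141 and 177 RPKM in every library, while Pparg, Fabp4 and Cpt1b lie near or below 1, and the open circle is the rhMG53 library with 0 Cpt1b counts.

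Lpl (gene ID 16956, chromosome 8, 68880555 to 68906932, mm10) had fewer reads with rhMG53. In replicates 1 to 3 it stood at 10.9, 13.3 and 10.4 CPM in rhMG53 libraries, against 16.9, 16.5 and 14.7 CPM in BSA libraries, from 179 to 382 counts a library. Every rhMG53 library lay below every BSA library, and the nearest pair, rhMG53 replicate 2 and BSA replicate 3, were 1.44 CPM apart. The means were 11.5 ± 1.56 CPM with rhMG53 and 16.0 ± 1.14 CPM with BSA (SD, n = 3 each). The log2 fold change was -0.48 (SE 0.111, 95% interval -0.72 to -0.23), a ratio of 0.718. The interval allows neither for the choice of the gene on this contrast nor for the number of genes, and is no test. With each library left out in turn it ranged over -0.59 to -0.41 on the log2 scale.

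Angptl4 (gene ID 57875, chromosome 17, 33774900 to 33781575) had more reads with rhMG53. Its levels were 5.76, 5.89 and 5.74 CPM in rhMG53 libraries and 4.86, 5.198 and 4.95 CPM in BSA libraries, so the groups did not overlap, with a gap of 0.540 CPM. The log2 fold change was 0.21 (SE 0.122, 95% interval -0.06 to 0.48). Counts were 90 to 114 a library, for which counting alone gives a coefficient of variation of 9.89%. The spread between libraries was 1.38% with rhMG53 and 3.48% with BSA, below that counting error, so these SDs understate the error. Within a library, the level of Angptl4 per length was 0.657, 0.551 and 0.688 times that of Lpl with rhMG53, and 0.358, 0.392 and 0.418 times with BSA. With Angptl4 higher and Lpl lower without overlap, these ratios had to separate, so they add nothing to the values of each gene.

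None of the 9 members that passed the filter was among the genes called in edgeR's quasi-likelihood test at an adjusted p under 0.05, a call made for 0.0218% of the 13769 tested genes, all of them higher. Groups did not overlap for Lpl and Angptl4, 2 of the 9, while 10.8% of all tested genes have groups that do not overlap, 4.83% lower and 5.94% higher with rhMG53. Since the members were chosen on this contrast, nothing is read from these counts. Among the 9, log2 fold changes were positive for 6 and negative for 3, with a median of 0.02, against a median of 0.00 over all tested genes.

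**Figure D2:**
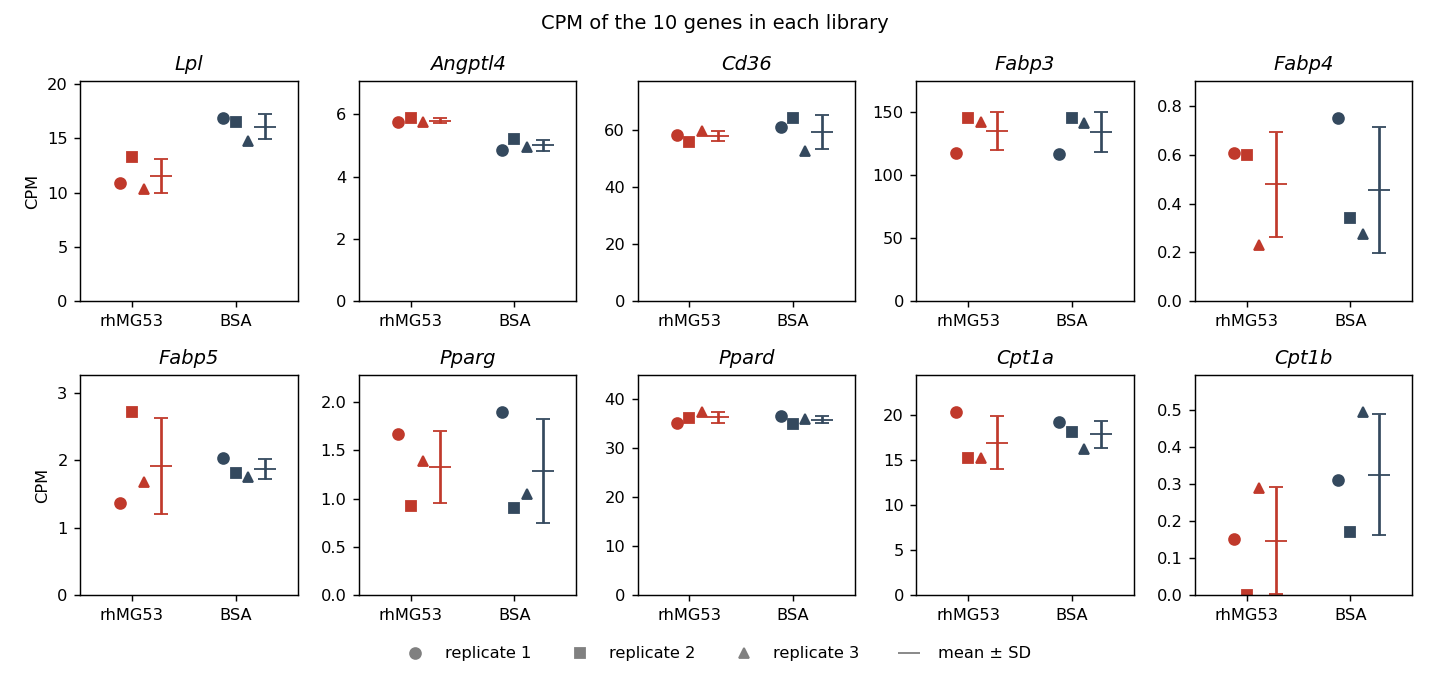
CPM of each gene (linear axes from 0) in rhMG53 libraries on the left of each panel and BSA libraries on the right, with a marker shape per replicate number and a bar for mean ± SD (n = 3 each). The groups are apart for Lpl and Angptl4 and overlap for the other 8 genes.

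The fatty acid transporter gene Cd36 (gene ID 12491, chromosome 5, 17781690 to 17888959) had overlapping groups. It was at 58.1, 55.9 and 59.5 CPM in rhMG53 libraries and at 60.8, 64.2 and 52.5 CPM in BSA libraries. The 3 rhMG53 libraries lay within the BSA range. The log2 fold change was -0.03 (SE 0.078, 95% interval -0.21 to 0.14), so this fit leaves room for changes up to those bounds.

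The 3 binding protein genes had nearly equal group means. Fabp3 (gene ID 14077, chromosome 4, 130308738 to 130315463) was at 117.3, 145.1 and 142.2 CPM with rhMG53 and 116.3, 145.4 and 141.0 CPM with BSA. Replicate 1 was the lowest library in both groups, and the labels do not say whether a replicate number marks a shared culture or day. The log2 fold change of Fabp3 was 0.01 (95% interval -0.21 to 0.23), and its last 81 bases overlap the span of Zcchc17, whose level was 48.2 to 55.0 CPM. Fabp5, known from skin and many other tissues (gene ID 16592, chromosome 3, 10012585 to 10016610), was at 1.36, 2.72 and 1.68 CPM with rhMG53 and 2.03, 1.81 and 1.76 CPM with BSA. The BSA libraries lay inside the wider rhMG53 range, and the log2 fold change was 0.03 (95% interval -0.55 to 0.61). Fabp4, the form typical of fat cells and macrophages (gene ID 11770, chromosome 3, 10204342 to 10208616), had 12, 11 and 4 counts with rhMG53 and 17, 6 and 5 with BSA, and its interval of -1.03 to 1.10 covers a change of over 2-fold either way. Fabp3 made up 98.0% to 98.9% of the summed level of the 3 genes per length in every library. Fabp3 and Fabp5 have annotated pseudogenes, and the sources used here do not say how reads that map to several places were counted.

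Both PPAR genes had overlapping groups. Ppard (gene ID 19015, chromosome 17, 28232754 to 28301469), the main PPAR of skeletal muscle, was at 35.1, 36.1 and 37.4 CPM with rhMG53 and 36.4, 34.9 and 35.8 CPM with BSA. The log2 fold change was 0.02 (SE 0.063, 95% interval -0.12 to 0.16). The coefficient of variation over all 6 libraries was 2.51%, below the 3.83% that counting alone gives, so it understates the error. Pparg, the receptor that drives fat cell formation (gene ID 19016, chromosome 6, 115360879 to 115490404), was at 1.67, 0.926 and 1.39 CPM with rhMG53 and 1.90, 0.904 and 1.04 CPM with BSA, from 16 to 43 counts. Replicate 1 was the highest library of each group. Ppard made up 95.8% to 97.9% of the summed level of both receptors per length.

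Cpt1a (gene ID 12894, chromosome 19, 3322326 to 3385735), the carnitine palmitoyltransferase form typical of liver, was at 20.4, 15.3 and 15.2 CPM with rhMG53 and 19.3, 18.1 and 16.3 CPM with BSA. The groups overlapped, and the log2 fold change was -0.08 (SE 0.122, 95% interval -0.35 to 0.19). Replicate 1 was the highest library in both groups. Cpt1b, the form typical of muscle (gene ID 12895, chromosome 15, 89416405 to 89425862), had only 3, 0 and 5 counts with rhMG53 and 7, 3 and 9 with BSA, did not pass the filter and has no fitted fold change. The library with 0 counts allows up to 3 counts, or 0.163 CPM, where limits of this kind cover counting error only. The whole span of Cpt1b lies inside that of Gm44502 (89416405 to 89429927), a long noncoding RNA gene that also covers the neighbouring choline kinase gene Chkb. Gm44502 had 0 counts in every library and Chkb 1 count in all 6 together. How the counting treated reads that overlap several genes is not given in the sources used here, so the Cpt1b count is uncertain as a measure of its RNA, and no share of Cpt1a to Cpt1b is drawn from it.

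**Figure D3:**
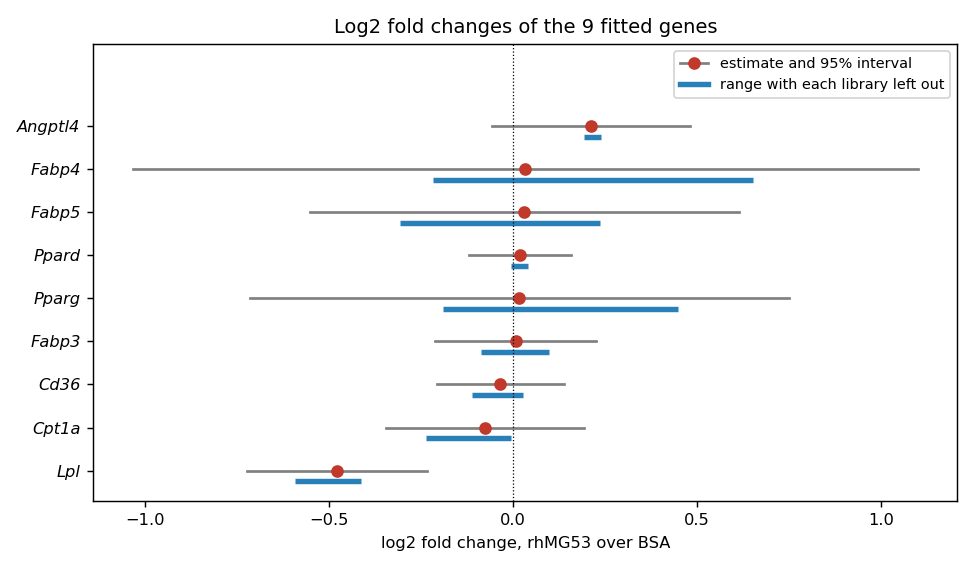
Log2 fold change of rhMG53 over BSA for the 9 fitted genes, as a dot with its 95% interval in grey, and the range of estimates with each library left out in blue. Lpl is the lowest at -0.48, Angptl4 the highest at 0.21, and the intervals of Fabp4, Pparg and Fabp5 are the widest.

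The summed levels of macrophage, fibroblast and endothelial markers overlapped between the groups, although some single markers did not. Macrophages and fibro-adipogenic cells are known sources of Lpl, Cd36 and Fabp4. The macrophage list (4 of 9 genes past the filter), led by Itgam and Mrc1, summed to 7.999 to 11.9 CPM with rhMG53 and 8.36 to 10.1 CPM with BSA. Fibroblast and fibro-adipogenic markers (6 of 8), led by Pdgfra and Dpt, summed to 82.4 to 96.9 CPM with rhMG53 and 77.5 to 90.7 CPM with BSA. Endothelial markers (2 of 8), led by Egfl7 and Emcn, summed to 3.23 to 4.93 CPM with rhMG53 and 4.15 to 4.63 CPM with BSA, and Gpihbp1 was at 0 counts in every library. The satellite cell list (5 of 6), almost all of it Itga7 and then Vcam1, summed to 1761, 1612 and 1771 CPM in rhMG53 replicates 1 to 3. In BSA libraries the sum was 1784 to 1869 CPM, so it was lower with rhMG53 without overlap, as Lpl was. Among rhMG53 libraries, replicate 2 had the lowest sum and the highest Lpl. The order of the sum is mainly that of Itga7, and a link to Lpl was not tested. Without Itga7 the list summed to 42.4 to 44.9 CPM with rhMG53 and 40.4 to 45.4 CPM with BSA. Of single markers past the filter, named after their values were seen, Dcn of the fibroblast list was at 18.18 to 20.1 CPM with rhMG53 and 15.3 to 18.17 CPM with BSA. Endothelial Emcn, with 6 to 26 counts, was at 0.303 to 0.638 CPM with rhMG53 and 0.770 to 1.15 CPM with BSA. Itga7 was the third whose groups did not overlap, lower with rhMG53. Since 10.8% of all tested genes have groups that do not overlap, nothing is read from these markers. Macrophage Lyz2 was at 0.858, 3.98 and 0.638 CPM with rhMG53 and 0.751, 0.565 and 0.605 CPM with BSA, with overlapping groups. Its 1 high library, rhMG53 replicate 2, also had the highest Lpl of its group. The other macrophage markers past the filter were mixed. In that library Cd68 was also the highest of its group (1.36 CPM), while Itgam was the lowest (4.36 CPM) and Mrc1 in between (1.74 CPM). The part of these cells in the Lpl difference was not tested.

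The genes whose pattern over the 6 libraries was most like that of Lpl were Mylip, Trmt11 and H1f3. Likeness was the root-mean-square difference of log2 CPM, each gene centred on its own mean, over 10120 genes with at least 5 CPM. It was 0.129 for Mylip, 0.130 for Trmt11 and 0.131 for H1f3, against a median of 0.288, while Lpl itself deviated from its mean by 0.270. Mylip encodes a ubiquitin ligase. It was at 8.79, 10.1 and 9.04 CPM with rhMG53 and at 10.96, 12.5 and 11.8 CPM with BSA. H1f3, a linker histone gene, was at 8.53, 9.37 and 8.17 CPM with rhMG53 and at 13.0, 12.1 and 13.9 CPM with BSA. All 3 genes, like Lpl, had groups that did not overlap, and likeness of this kind says nothing of a shared function.

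Around the 10 genes, 103 other genes of the same pathways were listed in 6 groups, of which 79 passed the filter, 12 were at 0 counts in every library and the other 12 were too low. No pathway gene was called in edgeR (adjusted p at 0.935 or above for all 79). At an unadjusted p under 0.05 in edgeR, 5 were higher and 1 lower, beside 5.2% of all tested genes, 2.98% higher and 2.22% lower. At an adjusted p under 0.05, DESeq2 and limma voom also called 0 pathway genes. The median log2 fold change of the 79 was 0.02. Their groups did not overlap for 10 higher and 2 lower, beside 10.8% of all tested genes, 5.94% higher and 4.83% lower. Genes named below for a small p were picked on this same contrast, so nothing is read from their lack of overlap.

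Genes that make and control the lipase or take up lipoproteins had 5 positive and 6 negative log2 fold changes of 11, with a median of -0.01. Lmf1, which lipase needs for folding in the endoplasmic reticulum, was at 14.4 ± 0.314 CPM with rhMG53 and 11.8 ± 0.494 CPM with BSA (SD, n = 3 each; log2 fold change 0.28, SE 0.087, edgeR adjusted p = 0.935). Its groups did not overlap. Pcsk6, a convertase of the furin family, was at 1.06 mean CPM with rhMG53 and 1.46 with BSA, with a log2 fold change of -0.45 (SE 0.253). The furin gene itself (192.0 and 193.5 mean CPM, rhMG53 and BSA) and the lipoprotein receptor gene Lrp1 (602.0 and 590.2) differed by less than the spread between libraries.

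Uptake and activation genes had 4 positive and 6 negative log2 fold changes of 10, with a median of -0.04. The acyl-CoA synthetase genes, whose products trap fatty acids as CoA esters, had log2 fold changes of both signs. Acsl6 was at 53.7 ± 3.40 CPM with rhMG53 and 62.8 ± 2.66 CPM with BSA (log2 fold change -0.22, SE 0.068). Acsl5 was at 20.5 ± 0.853 CPM with rhMG53 and 17.9 ± 0.718 CPM with BSA (0.19, SE 0.078), and Acsl3 at 345.5 ± 1.46 CPM with rhMG53 and 321.9 ± 8.92 CPM with BSA (0.10, SE 0.055). None of the 3 passed, with edgeR adjusted p at 0.935, 0.946 and 0.965. Their groups did not overlap, but Acsl6 and Acsl5 were named for their small p. Acsl1 had a log2 fold change of -0.11 (SE 0.073) and Dbi, which encodes an acyl-CoA binding protein, one of 0.01 (SE 0.073).

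PPAR partners had 6 positive and 8 negative log2 fold changes of 14, with a median of -0.01 and no gene at an unadjusted p under 0.05. Rxra, the partner receptor, was at 86.4 ± 1.17 CPM with rhMG53 and 90.4 ± 4.30 CPM with BSA, and the corepressor gene Ncor1 had a log2 fold change of -0.08. Cebpb, a transcription factor of early fat cell formation, stood at 0.40 (SE 0.195), and Lpin1, a phosphatidate phosphatase gene, at 0.09 (SE 0.062).

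Known PPAR targets outside the 10 members had 10 positive and 2 negative log2 fold changes of 12, with a median of 0.11, and none was called. Over all tested genes 6957 were positive and 6812 negative. The members, of which several are also known targets, had 6 positive and 3 negative of 9, with Lpl the lowest at -0.48. The lipid droplet coat gene Plin2 was at 55.0 ± 1.42 CPM with rhMG53 and 48.9 ± 3.20 CPM with BSA (log2 fold change 0.17, SE 0.067, edgeR adjusted p = 0.946). For Acot2, which encodes a mitochondrial thioesterase, the log2 fold change was 0.17 (SE 0.092). Ucp2 (0.12, SE 0.069) and Pdk4, which restrains glucose oxidation (0.05, SE 0.062), had overlapping groups.

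Mitochondrial beta-oxidation genes had 13 positive and 7 negative log2 fold changes of 20, all between -0.13 and 0.12, with a median of 0.01. The highest of them per length of the median transcript, Crat (-0.02), Etfb (0.12) and Acadl (-0.02), had SEs of 0.060, 0.065 and 0.059. Scaled by the longest transcript, Crat was at 40.9 RPKM, below Acadl at 126.6 and Etfb at 85.95. Eci2 stood at 0.12 (SE 0.078). Lipid droplet and triglyceride genes had 9 positive and 3 negative of 12, with a median of 0.07. Dgat2, which makes triglyceride, was at 22.6 ± 1.28 CPM with rhMG53 and 18.4 ± 0.803 CPM with BSA (log2 fold change 0.30, SE 0.079, edgeR adjusted p = 0.935), without overlap. Cidea, a droplet fusion gene at 1.85 and 1.198 mean CPM with rhMG53 and BSA, had a log2 fold change of 0.59 (SE 0.268). The lipase gene Pnpla2 (0.01), Plin3 (0.10) and Gpam (0.03) had overlapping groups.

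**Figure D4:**
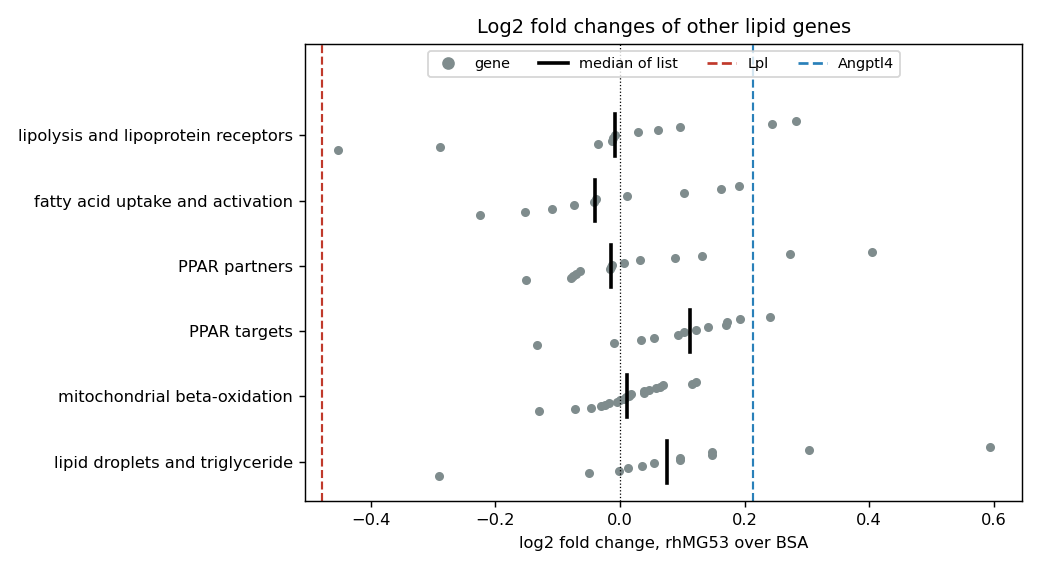
Log2 fold change of rhMG53 over BSA for the tested genes of each of 6 lipid gene lists, 1 grey dot per gene with a black bar at the median of the list, and dashed lines at the values of Lpl (-0.48) and Angptl4 (0.21). List medians lie between -0.04 and 0.11. The lowest gene of these lists, Pcsk6, was at -0.45 (SE 0.253), near Lpl, which was chosen with this contrast known.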

How the data were processed

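The authors deposited raw whole-number counts for 27179 NCBI gene IDs in each library. Per the labels' protocols, poly(A) RNA was made into directional libraries with a low-input kit protocol. The build was mm10 and the tools were STAR, featureCounts and edgeR, per the submitters' processing notes. The annotation, strand setting and treatment of shared reads were not given in the sources used here. RefSeq (GRCm38.p6) gave 25275 symbols and all coordinates, 1-based, and GENCODE gave 18 more symbols and the transcript lengths.

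Genes kept by filterByExpr (minimum count 10, total 15) were scaled with TMM factors and tested for rhMG53 against BSA with edgeR 4.0.16 in R 4.3.3, with the quasi-likelihood F test, 2-sided, and Benjamini-Hochberg adjustment over 13769 genes. CPM use TMM-scaled library sizes. An SE is the log2 fold change over the square root of F. The fit was tested on simulated data. Alternatives were other scalings and filters, DESeq2 1.42.0, limma 3.58.1 voom, a stricter threshold, the replicate number as a term, and leaving out each library.

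The members and lists were chosen with earlier results of these data known. Named pathway genes are, per list, the 3 with the highest level per length of the median transcript and the 2 with the smallest p. Named markers are the 2 highest of a list and those at 0. The 3 genes nearest to Lpl were also named, and other genes after their values were seen. Some genes that the rule names are left out of the text. Promoter windows were searched for exact letters.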

Additional observations from a re-analysis of the deposited data

How the results depend on the processing

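The count of 3 genes called higher over the whole table became 6 with no filter beyond a total count of 1, 5 with DESeq2 and 0 with the replicate number as a term, and ranged over 0 to 4 with each library left out, at 0 without BSA replicate 2. No gene was called lower in any of these fits. No pathway gene was called in any fit, with 2 to 7 higher and 1 to 4 lower at an unadjusted p under 0.05. The log2 fold changes of Lpl (-0.59 to -0.41) and Angptl4 (0.19 to 0.24) kept their sign in all 14 alternatives, as did that of Cpt1a (-0.23 to -0.0043). The sign turned in 4 of 13 alternatives for Fabp4 and for Pparg, in 3 of 13 for Fabp5, in 3 of 14 for Fabp3, and in 1 of 14 for Cd36 and for Ppard. The largest moves of a library left out were without BSA replicate 1, which gave 0.65 for Fabp4 and 0.45 for Pparg. With the replicate block, Lpl was at -0.48 (SE 0.099) and Angptl4 at 0.21 (SE 0.125). The block lowered the SE for Lpl, Fabp3 (0.099 to 0.053), Pparg (0.332 to 0.248), Fabp4 (0.484 to 0.398) and Cpt1a (0.122 to 0.092). It raised the SE slightly for Cd36, Fabp5, Angptl4 and Ppard. No label states a shared animal or day for a replicate number, so the numbers were not taken as pairs. Over all tested genes, deviations of same-numbered libraries correlated at 0.19, -0.13 and -0.15, which does not settle pairing for single genes. By the longest transcript the levels of Cd36, Ppard and Cpt1a moved to 17.2, 10.98 and 4.03 RPKM. The genes nearest to Lpl were the same 3 with library sizes alone. Depth limits Fabp4, Pparg, Fabp5 and Cpt1b, which had at most 50 counts in a library.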
